A study of Mus musculus with 4 samples.

Results

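The cells described here were chosen as B cell precursors from single-cell RNA sequencing of mouse hindlimb muscle after irradiation. A cell was selected when it held at least 2 UMIs (unique molecular identifiers, each counting 1 captured transcript) of Cd79a and Cd79b together and at least 2 of Vpreb3, Rag1, Il7r, Vpreb1 and Igll1 together. It also had to hold fewer than 3 UMIs of the endothelial genes Pecam1, Cdh5, Egfl7 and Cldn5 and 0 of the T cell gene Cd3e. The rule selected 245 of 6544 cells, where a barcode counted as a cell when it had 200 or more genes, 500 or more UMIs and no more than 20% of them mitochondrial. Because measured values of these genes chose the cells, their levels are given as a description. The 235 cells that met the Cd79, endothelial and Cd3e limits but held fewer than 2 UMIs of the 5 precursor genes served as the other Cd79-positive cells.

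The 4 groups were irradiated (IR) muscle at 24 hours, control (CON) muscle at 24 hours, IR muscle at 56 days and CON muscle at 56 days. All came from male C57Bl/6J mice that were 5 weeks old when 1 hindlimb received 3 X-ray fractions of 8.2 Gy. CON is the shielded opposite limb of the same mice, so both limbs of a pair belonged to irradiated animals and no unirradiated animal entered these comparisons. Each group is 1 library pooled from 3 limbs after collagenase and dispase digestion, red-cell lysis and sorting of live nucleated cells. With 1 library per group no test between conditions was possible. Intervals on shares and on ratios between libraries are exact 95% intervals that cover counting error only.

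B cells are made in bone marrow through ordered steps. Progenitors depend on interleukin-7, rearrange their immunoglobulin heavy-chain genes with the RAG recombinase, and then display a surrogate light chain made of the Igll1 and Vpreb1 or Vpreb2 products, paired with the heavy chain and the Cd79a and Cd79b signalling chains, as the pre-B cell receptor. Small pre-B cells rearrange light-chain genes, and immature B cells leave the marrow and gain class II MHC, Cd83, Fcer2a and surface IgD as they mature. Vpreb3, a protein of the endoplasmic reticulum that binds newly made immunoglobulin chains in developing B cells, stays on later in these steps than the surrogate light chain and the RAG genes.

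The windows that surround the starts of Igll1, Vpreb1, Vpreb2 and Rag1 are shown because these genes separate the least mature of the selected cells from the rest. Each runs from 250 bases before to 50 bases after the RefSeq start (RefSeq, GRCm38.p6) and is written 5′ to 3′ on the gene's own strand. Capitals mark matches, on either strand, to the E-box letters CAGCTG or CAGGTG (or its reverse complement CACCTG) or to CCCNNGGG, the core letters of the motif of Ebf1, a B lineage transcription factor.
Igll1, chr16:16863936-16864235, minus strand: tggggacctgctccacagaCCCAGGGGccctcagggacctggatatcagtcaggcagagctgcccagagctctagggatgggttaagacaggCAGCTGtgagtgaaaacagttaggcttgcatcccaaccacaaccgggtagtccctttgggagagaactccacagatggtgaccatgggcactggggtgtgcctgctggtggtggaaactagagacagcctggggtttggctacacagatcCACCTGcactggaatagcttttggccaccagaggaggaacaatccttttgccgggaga
Vpreb1, chr16:16869206-16869505, minus strand: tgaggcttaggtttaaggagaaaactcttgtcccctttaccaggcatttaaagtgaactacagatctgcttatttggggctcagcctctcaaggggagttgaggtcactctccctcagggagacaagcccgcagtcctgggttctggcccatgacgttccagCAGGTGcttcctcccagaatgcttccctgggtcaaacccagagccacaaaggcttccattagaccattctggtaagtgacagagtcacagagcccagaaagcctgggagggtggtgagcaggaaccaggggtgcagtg
Vpreb2, chr16:17980315-17980614, plus strand: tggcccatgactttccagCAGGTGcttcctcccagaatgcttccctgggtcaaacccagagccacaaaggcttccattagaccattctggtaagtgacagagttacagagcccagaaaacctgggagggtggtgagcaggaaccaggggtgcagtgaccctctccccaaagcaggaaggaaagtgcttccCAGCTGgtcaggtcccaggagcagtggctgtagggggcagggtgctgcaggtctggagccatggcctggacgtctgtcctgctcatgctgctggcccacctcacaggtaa
Rag1, chr2:101649483-101649782, minus strand: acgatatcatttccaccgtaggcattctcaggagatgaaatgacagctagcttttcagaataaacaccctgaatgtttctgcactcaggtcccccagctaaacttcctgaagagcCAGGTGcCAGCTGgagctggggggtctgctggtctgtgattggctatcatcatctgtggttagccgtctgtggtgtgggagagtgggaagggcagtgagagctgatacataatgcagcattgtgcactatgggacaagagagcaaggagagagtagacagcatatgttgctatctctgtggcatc
The Igll1 window held CCCNNGGG at −231, CAGCTG at −158 and CAGGTG, read on the other strand, at −8, all counted from the start. The Rag1 window held CAGGTG at −135 and CAGCTG at −128, separated by 1 base, and the Vpreb2 window held CAGGTG at −232 and CAGCTG at −60. The Vpreb1 window held CAGGTG at −88. These letters were common: of 32851 promoter windows of the same length, 13.7% held CCCNNGGG, 16.3% CAGCTG and 20.2% CAGGTG, and no motif overlapped another in the windows printed. The Vpreb1 and Vpreb2 windows share a stretch in which 153 of 156 aligned bases (98.1%) were identical, and 669 of 773 aligned bases (86.5%) of their longest annotated transcripts matched. Counts that separate Vpreb1 from Vpreb2 are therefore uncertain.

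Across the whole series the 4 libraries held between 1030 and 2763 barcodes and between 4715202 and 10121978 UMIs. The selected cells had a median of 3181 UMIs in IR muscle at 24 hours, 3197.5 in CON muscle at 24 hours, 3109 in IR muscle at 56 days and 3172 in CON muscle at 56 days. Their medians were thus alike in depth across the libraries. Each pair of libraries shared between 1 and 3 kept barcodes. A barcode selected in IR muscle at 24 hours, with 740 UMIs and 498 genes, was also selected in IR muscle at 56 days, with 55119 UMIs and 6108 genes. All 498 of its genes were detected in the deeper cell, against 78.94 to 84.24% (median 81.24%) of the genes of the other 44 selected cells of IR muscle at 24 hours. This cell of 55119 UMIs held 33.01% of all UMIs of the selected cells of IR muscle at 56 days, so the ratios of IR over CON muscle at 56 days are also given without this shared barcode.

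The markers went against the label for most of the cells in IR muscle at 24 hours and for part of the cells elsewhere. Of the 245 cells, 159 (64.9%) held 0 UMIs of Rag1, Il7r, Igll1 and Vpreb1, and were selected through Vpreb3 alone. These cells, called the Vpreb3 class, made up 44 of 45 cells (97.78%) of IR muscle at 24 hours and 75 of 126 (59.52%) of CON muscle at 24 hours. At 56 days they made up 18 of 35 cells (51.43%) of IR muscle and 22 of 39 (56.41%) of CON muscle. The other 86 cells comprised 11 with at least 2 UMIs of Igll1 and Vpreb1 together, the surrogate light chain class, and 75 further cells with Rag1 or Il7r, the Rag1 or Il7r class. At the lower edge of the rule the choice was close. Of 41 cells with exactly 2 UMIs of the 5 precursor genes, 34 held Ms4a1, the B cell surface protein CD20, and 6 held Sox4 or Atp1b1. Of 67 cells just outside it, with 1 UMI, 57 held Ms4a1 and 8 held Sox4 or Atp1b1. Of 100 cells with at least 10 UMIs, 37 held Ms4a1 and 92 held Sox4 or Atp1b1.

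The genes that chose the cells were read unevenly across the libraries. Vpreb3 (ENSMUSG00000000903, chr10:75943057-75949657, GRCm38, GENCODE M21, protein coding) had 241 UMIs in IR muscle at 24 hours, 1211 in CON muscle at 24 hours, 464 in IR muscle at 56 days and 542 in CON muscle at 56 days. Per 1000000 UMIs of the selected cells of the library (CPM) these were 1613, 2454, 2779 and 3032 CPM in the same order of libraries. Rag1 (chr2:101638282-101649501), a recombinase subunit, had 2 UMIs in 1 cell of IR muscle at 24 hours and 61 UMIs in 31 cells of CON muscle at 24 hours. At 56 days Rag1 had 15 UMIs in 10 cells of IR muscle and 22 UMIs in 7 cells of CON muscle. Il7r (chr15:9505788-9530176), the interleukin-7 receptor alpha chain, had 0 UMIs in IR muscle at 24 hours and 86 UMIs in 38 cells of CON muscle at 24 hours. At 56 days Il7r had 24 UMIs in 10 cells of IR muscle and 54 UMIs in 16 cells of CON muscle. The library of IR muscle at 24 hours was therefore the lowest of the 4 for Rag1 and Il7r, and the other Cd79-positive cells held 0 UMIs of both in every library. Among 3298 cells of the endothelial class, which should lack these genes, Vpreb3 had 1 UMI, Rag1 0 and Il7r 19.

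Both chains of the surrogate light chain were found in few cells. Igll1 (chr16:16860671-16863985) had 0 UMIs in IR muscle at 24 hours, 10 UMIs in 5 cells of CON muscle at 24 hours, 72 UMIs in 3 cells of IR muscle at 56 days and 47 UMIs in 5 cells of CON muscle at 56 days. Vpreb1 (chr16:16868403-16870843), whose gene lies 4417 bases from Igll1, had 0 UMIs in IR muscle at 24 hours, 18 in 5 cells of CON muscle at 24 hours, 77 in 3 cells of IR muscle at 56 days and 90 in 7 cells of CON muscle at 56 days. Of the 11 cells of the surrogate light chain class, 5 held Vpreb2 and 5 held Dntt, the terminal transferase that adds bases at immunoglobulin joints; both genes had 0 cells in the Rag1 or Il7r class and 0 in the Vpreb3 class. All 11 held both Igll1 and Vpreb1. Of the endothelial class, kept cells with 3 or more UMIs of Pecam1, Cdh5, Egfl7 and Cldn5 and 0 of Cd79a and Cd79b, 3.457% of cells also held a UMI of Vpreb1. As annotated, that gene overlaps Top3b on the other strand by 108 bases, and whether the overlap bears on these UMIs was not tested. The surrogate light chain class was the deepest of the 3, with a median of 11610 UMIs a cell, against 2965 in the Rag1 or Il7r class and 3198 in the Vpreb3 class.

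The selected cells made up a smaller share of IR than of CON muscle at 24 hours while at 56 days the interval of the ratio included 1. They were 45 of 2539 cells (1.772%, interval 1.296 to 2.364%) in IR muscle at 24 hours and 126 of 1336 cells (9.431%, interval 7.917 to 11.13%) in CON muscle at 24 hours, a ratio of 0.1879 (interval 0.1306 to 0.2661). At 56 days they were 35 of 969 cells (3.612%, interval 2.529 to 4.988%) in IR muscle and 39 of 1700 cells (2.294%, interval 1.636 to 3.123%) in CON muscle, a ratio of 1.574 (interval 0.9684 to 2.551). With every cell thinned to 1000 UMIs the ratio at 56 days was 2.149 (interval 1.155 to 4.037). With 3 precursor UMIs required it was 1.868 (interval 1.109 to 3.153) with 0 endothelial UMIs it was 1.901 (interval 1.049 to 3.458) and with a mitochondrial limit of 10% it was 1.637 (interval 1.001 to 2.673), so the share was higher in IR muscle beyond counting error under those limits. The ratio of CON muscle at 56 days to CON muscle at 24 hours was 0.2432 (interval 0.1653 to 0.3509). The intervals at 24 hours did not overlap between IR and CON, and those at 56 days did. The other Cd79-positive cells had much the same ratios, 0.2586 for IR over CON at 24 hours, 1.267 at 56 days and 0.2439 between the CON libraries. Selected cells were 44.12% of all Cd79-positive cells in IR muscle and 52.07% in CON muscle at 24 hours, and 57.38% in IR muscle and 52.0% in CON muscle at 56 days.

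Cells of other blood and marrow types were also fewer in IR muscle at 24 hours. At 24 hours cells with T cell genes were 39 in IR and 132 in CON muscle, a ratio of shares of 0.1555, and nucleated erythroid cells were 5 in IR and 54 in CON muscle, a ratio of 0.04872. Immature neutrophils were 1 in IR and 25 in CON muscle, and granulocyte-monocyte progenitors 1 in IR and 11 in CON muscle. Endothelial cells, the largest class, were 1547 in IR and 479 in CON muscle, a ratio of 1.699, and a share of all cells also moves when another class does. At 56 days the counts were 27 in IR and 97 in CON muscle for erythroid cells, and 18 in IR and 162 in CON muscle for immature neutrophils, while the selected cells' ratio was 1.574. The ratios of shares at 56 days were 0.4883 for erythroid cells and 0.1949 for immature neutrophils. Between CON muscle at 56 days and CON muscle at 24 hours the ratio was 5.093 for immature neutrophils and 1.412 for erythroid cells, against 0.2432 for the selected cells. Erythroid cells and immature neutrophils thus ran apart from the selected cells in both comparisons. The T cell class had 0.1072 (interval 0.06161 to 0.176) between the CON libraries and 1.072 (interval 0.4576 to 2.397) for IR over CON at 56 days. For granulocyte-monocyte progenitors these ratios were 1.143 (interval 0.4982 to 2.724) and 0.3289 (interval 0.06142 to 1.149). Erythroid cells, immature neutrophils and granulocyte-monocyte progenitors belong to marrow, and the part of marrow carried along with the muscle in these shares was not tested.

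**Figure D1:**
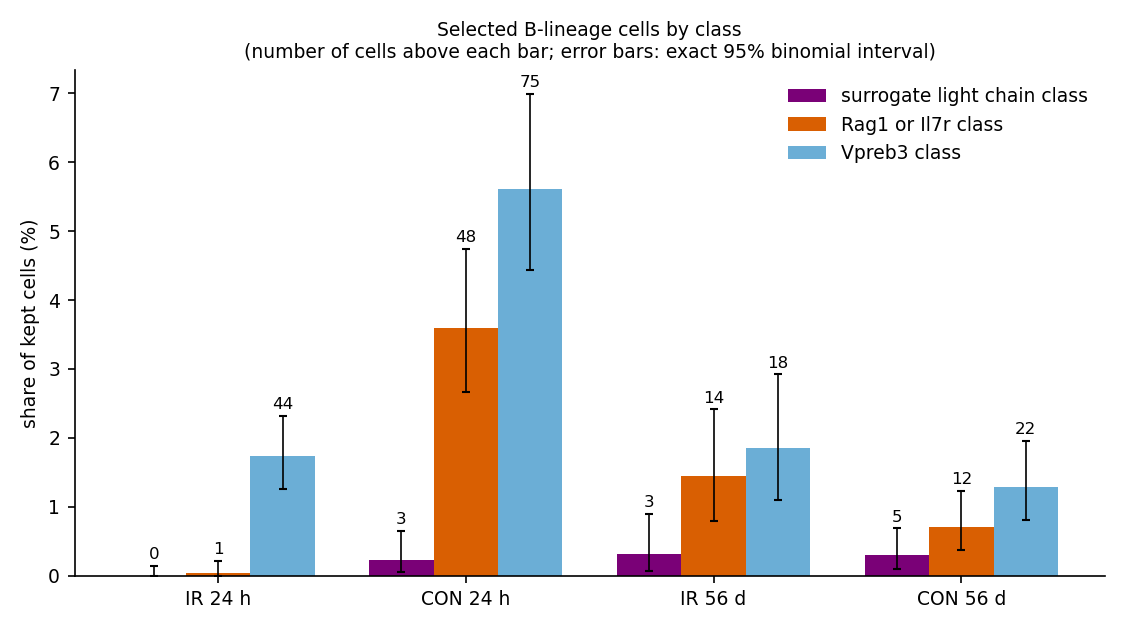
Share of kept cells (percent, y axis) held by each class of selected cells in each of the 4 libraries, with exact 95% binomial intervals for counting error as error bars. The Rag1 or Il7r class is at 0.03939% in IR muscle and 3.593% in CON muscle at 24 hours, and the Vpreb3 class at 1.733% in IR and 5.614% in CON muscle.

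The classes had unequal ratios of IR to CON muscle at 24 hours. The surrogate light chain and Rag1 or Il7r classes together held 1 cell in IR muscle and 51 cells in CON muscle, a ratio of shares of 0.01032 (interval 0.0002563 to 0.06013). The Vpreb3 class held 44 cells in IR muscle and 75 cells in CON muscle, a ratio of 0.3087 (interval 0.2078 to 0.4538). These intervals did not overlap; the difference between the classes' ratios was not tested, since each condition is 1 library. Cycling cells, defined by at least 2 UMIs of the proliferation genes Mki67 and Top2a, were 0 of 45 selected cells in IR muscle, which allows a share of up to 6.667% at the floor of 3 cells (upper bound of the exact interval 7.871%), and 12 of 126 (9.524%) in CON muscle. Against the floor of 3 cells the share of cycling cells among kept cells was at least 7.602-fold lower in IR muscle.

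At 56 days all classes were present in both limbs. The surrogate light chain and Rag1 or Il7r classes together held 17 cells in IR muscle and 17 in CON muscle, a ratio of shares of 1.754 (interval 0.8419 to 3.656). The Vpreb3 class held 18 cells in IR muscle and 22 in CON muscle, a ratio of 1.435 (interval 0.7256 to 2.804). Cycling cells were 2 of 35 in IR muscle and 8 of 39 in CON muscle, a ratio of shares among kept cells of 0.4386 (interval 0.04537 to 2.198). Every one of these intervals included 1, so no difference was detectable at these cell numbers. Of the 22 cycling cells in all, 7 were among the 11 cells of the surrogate light chain class, 7 among the 75 of the Rag1 or Il7r class and 8 among the 159 of the Vpreb3 class.

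Sox4 and Atp1b1 were not part of the rule. They were given as markers with earlier results of these data known, so they are no independent check of the label. Sox4 (chr13:28948919-28953713), a transcription factor needed for early B cell development, was found in 5 of 45 selected cells of IR muscle and 64 of 126 of CON muscle at 24 hours, and in 22 of 35 of IR muscle and 20 of 39 of CON muscle at 56 days. Its level was 73.62 CPM in IR muscle and 774.2 CPM in CON muscle at 24 hours, and 646.8 CPM in IR muscle and 525.9 CPM in CON muscle at 56 days. Atp1b1 (chr1:164437109-164458355), a subunit of the sodium pump, was found in 9 of 45 and 70 of 126 selected cells of IR and CON muscle at 24 hours, and in 22 of 35 and 19 of 39 cells of IR and CON muscle at 56 days. The selected cells of IR muscle at 24 hours thus stood apart from the 3 other libraries in both genes. By class, Sox4 was in 11 of 11 cells of the surrogate light chain class, 62 of 75 of the Rag1 or Il7r class and 38 of 159 of the Vpreb3 class. In the endothelial class 32.9% of cells held Sox4 and 4.85% held Atp1b1, so Sox4 alone does not mark B lineage cells in this tissue.

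A count of cells with any UMI of Sox4, Atp1b1, Rag2 or Dntt was also lowest in IR muscle at 24 hours. Such cells were 24.44% of the selected cells of IR muscle and 65.87% of CON muscle at 24 hours, and 74.29% of IR muscle and 64.1% of CON muscle at 56 days. With every cell thinned to 1000 UMIs, which left out 1 selected cell of IR muscle at 24 hours and 1 of CON muscle at 56 days, the shares were 11.36% and 50.0% for IR and CON muscle at 24 hours, and 21 of 35 cells and 52.63% for IR and CON muscle at 56 days. Among the other Cd79-positive cells the unthinned shares lay between 3.846 and 11.11%. The share was 84 of 86 cells in the surrogate light chain and Rag1 or Il7r classes together and 61 of 159 (38.36%) in the Vpreb3 class. Within the Vpreb3 class it was 22.73% in IR muscle and 45.33% in CON muscle at 24 hours, and 50.0% in IR muscle and 36.36% in CON muscle at 56 days.

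**Figure D2:**
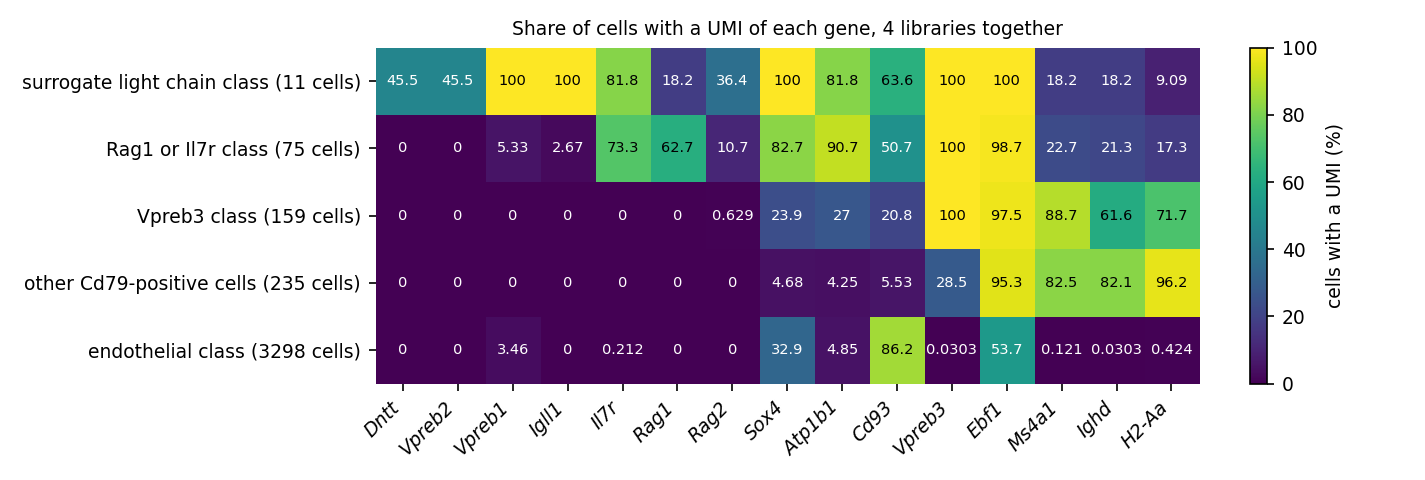
Percent of cells with at least 1 UMI of each gene (columns; colour and printed value) in each class of cells (lines), with the 4 libraries together. Sox4 was found in 100% of the surrogate light chain class, 82.7% of the Rag1 or Il7r class, 23.9% of the Vpreb3 class and 4.68% of the other Cd79-positive cells.

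Genes of mature B cells ran the other way. Ms4a1 was found in 44 of 45 selected cells of IR muscle and 73 of 126 of CON muscle at 24 hours, and in 18 of 35 of IR muscle and 25 of 39 of CON muscle at 56 days. H2-Aa, a class II MHC chain, was found in 38 of 45 and 58 of 126 cells of IR and CON muscle at 24 hours, and in 13 of 35 and 19 of 39 at 56 days. The median over cells of the summed level of 10 class II genes and a set of mature B cell genes, among them Ighd, Ms4a1, Fcer2a, Cr2, Ccr7 and Cd22, was 27630 CPM in IR muscle and 5789 CPM in CON muscle at 24 hours, and 3560 CPM in IR muscle and 6952 CPM in CON muscle at 56 days. The other Cd79-positive cells had medians between 25510 and 35500 CPM in the 4 libraries, so the selected cells of IR muscle at 24 hours lay in the range of those cells. Medians by class were 430.7 CPM in the surrogate light chain class, 1216 CPM in the Rag1 or Il7r class and 26750 CPM in the Vpreb3 class. Ebf1 was found in 11 of 11, 74 of 75 and 155 of 159 cells of these classes, in that order, but also in 53.7% of endothelial cells.

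**Figure D3:**
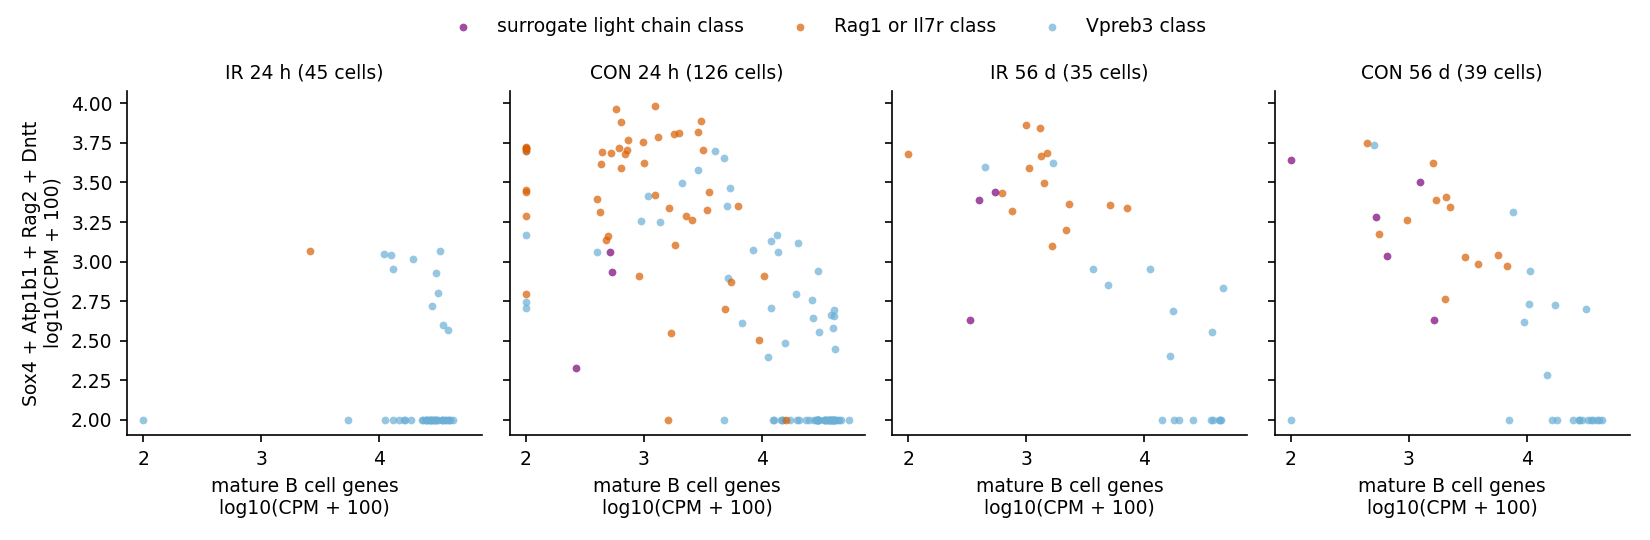
Each point is 1 selected cell, in a panel per library and coloured by class: summed level of class II MHC and mature B cell genes (x axis, log10 of CPM + 100) against that of Sox4, Atp1b1, Rag2 and Dntt (y axis, log10 of CPM + 100). Cells of IR muscle at 24 hours gather at the right, at a median of 27630 CPM of the mature genes, and 34 of 45 lie on the floor of the y axis.

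Light-chain transcripts were most common in the Vpreb3 class. At least 10 UMIs of Igkc, the kappa light-chain constant region, were found in 6 of 11 cells of the surrogate light chain class, 40 of 75 of the Rag1 or Il7r class and 135 of 159 of the Vpreb3 class, and in 0 cells of the endothelial class. By library such cells were 42 of 45 in IR muscle and 92 of 126 in CON muscle at 24 hours, and 22 of 35 in IR muscle and 25 of 39 in CON muscle at 56 days. Igkc had 11870 CPM in IR muscle and 6860 CPM in CON muscle at 24 hours, a ratio of 1.731 (interval 1.633 to 1.834). Ighm, the IgM heavy chain, had 4772 CPM in IR muscle and 4215 CPM in CON muscle at 24 hours, and 3438 CPM in IR muscle and 3832 CPM in CON muscle at 56 days, a narrow range across the 4 libraries. The lambda constant genes Iglc1, Iglc2 and Iglc3 had 0 UMIs in the surrogate light chain class; they are near copies, and reads can be split among them.

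Genes outside the rule were compared between the 245 selected cells and the 235 other Cd79-positive cells, with each library giving 1 sum of UMIs per class and the library as a block in edgeR's quasi-likelihood test. Of 2482 genes tested, 67 (2.7%) were higher and 100 (4.03%) lower in the selected cells at a Benjamini-Hochberg adjusted p under 0.05, and the median log2 fold change of all genes was −0.01. The p-values measure the spread between 4 pooled libraries, which are 4 conditions and not replicates of 1 condition. IR and CON limbs of a time came from the same mice, and that pairing was not in the fit. The class sizes per library, in the order IR and CON at 24 hours and IR and CON at 56 days, were 45, 126, 35 and 39 selected cells and 57, 116, 26 and 36 other cells. Median depths were close, with 3181 UMIs in the selected and 3285 in the other cells of IR muscle at 24 hours, and 3197.5 in the selected and 3106 in the other cells of CON muscle at 24 hours. Leaving out the CON library of 24 hours, which held most of the selected cells, gave 13 higher and 19 lower genes, and leaving out the IR library of 24 hours gave 152 higher and 165 lower. Without the barcode shared by IR muscle at 24 hours and 56 days, 96 genes were higher and 138 lower. The other cells of CON muscle at 56 days included 2 plasma-like cells, with at least 10 UMIs of Jchain. Igkc had 115000 CPM in the other cells of that library, against 9187, 8084 and 10680 CPM in IR and CON muscle at 24 hours and IR muscle at 56 days. Without the plasma-like cells 79 genes were higher and 125 lower.

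The markers proposed for the cells led the genes that rose. Sox4 had 11, 382, 108 and 94 UMIs in the selected cells of IR and CON muscle at 24 hours and IR and CON muscle at 56 days, against 3, 15, 0 and 2 in the other cells. Sox4 was higher in the selected cells of all 4 libraries, with a log2 fold change of 4.33 (SE 0.40, edgeR adjusted p 0.0001937). Atp1b1 had 15, 269, 90 and 70 UMIs in the selected cells and 3, 3, 1 and 10 in the other cells of the same libraries, a log2 fold change of 3.91 (SE 0.50, edgeR adjusted p 0.00165). The gap was smallest in IR muscle at 24 hours for Sox4, with 73.62 CPM in the selected and 15.1 CPM in the other cells. Both given markers outside the rule thus passed. Because they were chosen with earlier results of these data known, their p-values are no independent support for the label. Tifa, an adaptor of NF-kB signalling (log2 fold change 3.89), Akap12, a scaffold for protein kinase A (2.88), and Serinc5, a membrane protein (2.84), were higher in all 4 libraries. So were Coq7, an enzyme of ubiquinone synthesis (2.89), Pafah1b3, a catalytic subunit of a platelet-activating factor hydrolase (2.47), and Chchd10, a mitochondrial protein (2.34). That agreement was fixed in advance, since genes were named only when they ran 1 way in all 4 libraries. The chromatin proteins Cecr2 (2.54) and Bcl7a (2.30) completed the set, together with Hist1h1b, a linker histone (3.77), and Stmn1, which destabilises microtubules (3.08). The filter on low counts could pass a gene through the selected cells alone, which partly set this list of largest rises. Tifa, for example, had 6, 3, 3 and 1 UMIs in the other cells, in the order of libraries given for Sox4. These rises are thus no independent support for the label. Of the 115 Stmn1 UMIs of the selected cells of IR muscle at 56 days, 97 came from the cell of 55119 UMIs. Histone genes are close copies of each other, so the share of Hist1h1b is uncertain.

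Genes of class II MHC presentation were lower in the selected cells as a group. All 10 of the 10 tested fell, with a median log2 fold change of −1.43. H2-Aa fell by 1.61 on the log2 scale (SE 0.25, edgeR adjusted p 0.004746), with 2503, 1781, 988.1 and 1097 CPM in the selected cells of IR and CON muscle at 24 hours and IR and CON muscle at 56 days, against 3393, 4473, 4574 and 3510 CPM in the other cells. The 4 libraries ran the same way for H2-Aa, and the selected cells of IR muscle at 24 hours came nearest to the other cells. Ciita, the factor that switches class II genes on, fell by 1.66 and the invariant chain gene Cd74 by 1.10, though Cd74 was higher in the selected cells of IR muscle at 24 hours, with 12660 CPM in the selected and 9812 CPM in the other cells.

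Of 20 tested genes of mature B cells 8 fell and 0 rose. Among them were Ighd, the IgD heavy chain (log2 fold change −1.51), Fcer2a, the low-affinity IgE receptor (−1.40), Cd83 (−1.75), Gpr183, an oxysterol receptor that positions B cells (−1.78), Fcmr, an IgM receptor (−1.45), Cxcr5, the receptor for follicle homing (−1.16), and Bank1, a B cell scaffold (−1.01). Ms4a1 did not pass, with a log2 fold change of 0.25 (edgeR adjusted p 0.5898). Ms4a1 had 2443, 999.1, 616.8 and 1046 CPM in the selected cells and 1143, 901.1, 800.1 and 589.0 CPM in the other cells of IR and CON muscle at 24 hours and IR and CON muscle at 56 days.

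Among 14 tested transcription factors of the B lineage 2 rose and 0 fell. Tcf3, which encodes E2A, had a log2 fold change of 1.37 and Spib, an ETS factor, of 1.31. Ebf1 had a log2 fold change of 0.47 (edgeR adjusted p 0.0594) and Pax5, which fixes B lineage identity, of 0.13 (edgeR adjusted p 0.7486), and neither passed. All 4 tested genes of G2 phase and mitosis rose, namely Hmgb2 (2.29), Cks2 (2.27), Tubb4b (1.71) and Cenpa (1.48), as did 1 of 4 S-phase genes, Dut (1.40). Only 4 of the 22 listed G2 and mitosis genes passed the filter on low counts. Hmgb2 and Smarca4 did not run 1 way in every library: Hmgb2 was lower in the selected cells of IR muscle at 24 hours, with 314.6 CPM in the selected and 372.5 CPM in the other cells, and higher in the 3 other libraries. Of 18 listed early progenitor genes only 2 passed the filter on low counts, and both rose, Sox4 and the chromatin remodeller Smarca4 (2.01). A gene could pass that filter through the selected cells alone. Sox4, a given marker with few UMIs in the other cells, therefore adds no independent support. Of 8 tested genes of interleukin-7 receptor signalling 1 rose, the cyclin gene Ccnd3 (1.32), and 3 fell, Myc (−2.05), the survival gene Bcl2 (−1.74) and the common cytokine receptor chain Il2rg (−0.87). Of 13 genes of pre-B and B cell receptor signalling 1 rose, the inhibitory coreceptor Cd72 (0.94), and 1 fell, Bank1.

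The genes that fell furthest, by the same rule of size and of 1 direction in all 4 libraries, were of mixed kinds. Apoe, a lipid carrier, had a log2 fold change of −3.37 (SE 0.42, edgeR adjusted p 0.00165), with 60.24, 81.07, 101.8 and 22.38 CPM in the selected cells and 287, 348.9, 1387 and 895.8 CPM in the other cells of IR and CON muscle at 24 hours and IR and CON muscle at 56 days. The rule fixed that Apoe was lower in all 4 libraries, and the gap was widest in both libraries of 56 days. Pglyrp1, a peptidoglycan-binding protein (−3.08), Ly6a, the Sca-1 antigen (−2.46), Ms4a4c (−2.16), Gimap3, a GTPase of lymphocytes (−2.09), and Clec2i, a C-type lectin (−2.03), were lower in all 4 libraries. So were Bmyc (−1.95), Tagap, a GTPase-activating protein (−1.92), Slc3a2, the heavy chain of an amino acid transporter (−1.89), and Bcl2a1b, a survival gene of the Bcl2 family (−1.85). Hspa1b, a heat shock protein (−2.77), had 0 and 0 UMIs in the selected cells and 1 and 3 in the other cells of IR and CON muscle at 24 hours, and 17 and 11 in the selected and 48 and 44 in the other cells of IR and CON muscle at 56 days. Its difference therefore rested on the libraries of 56 days. Ms4a4c, Gimap3 and Bcl2a1b have close relatives and their counts are uncertain. A gene that fell could pass the filter on low counts through the other cells alone. Pglyrp1 had 2, 5, 0 and 2 UMIs in the selected cells, in the order of libraries given for Apoe. Of the p53 targets 0 of 6 tested passed in either direction, and of the nuclear genes of oxidative phosphorylation 0 of 20; over all genes 495 had an unadjusted p under 0.05, and DESeq2 called 54 higher and 61 lower.

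**Figure D4:**
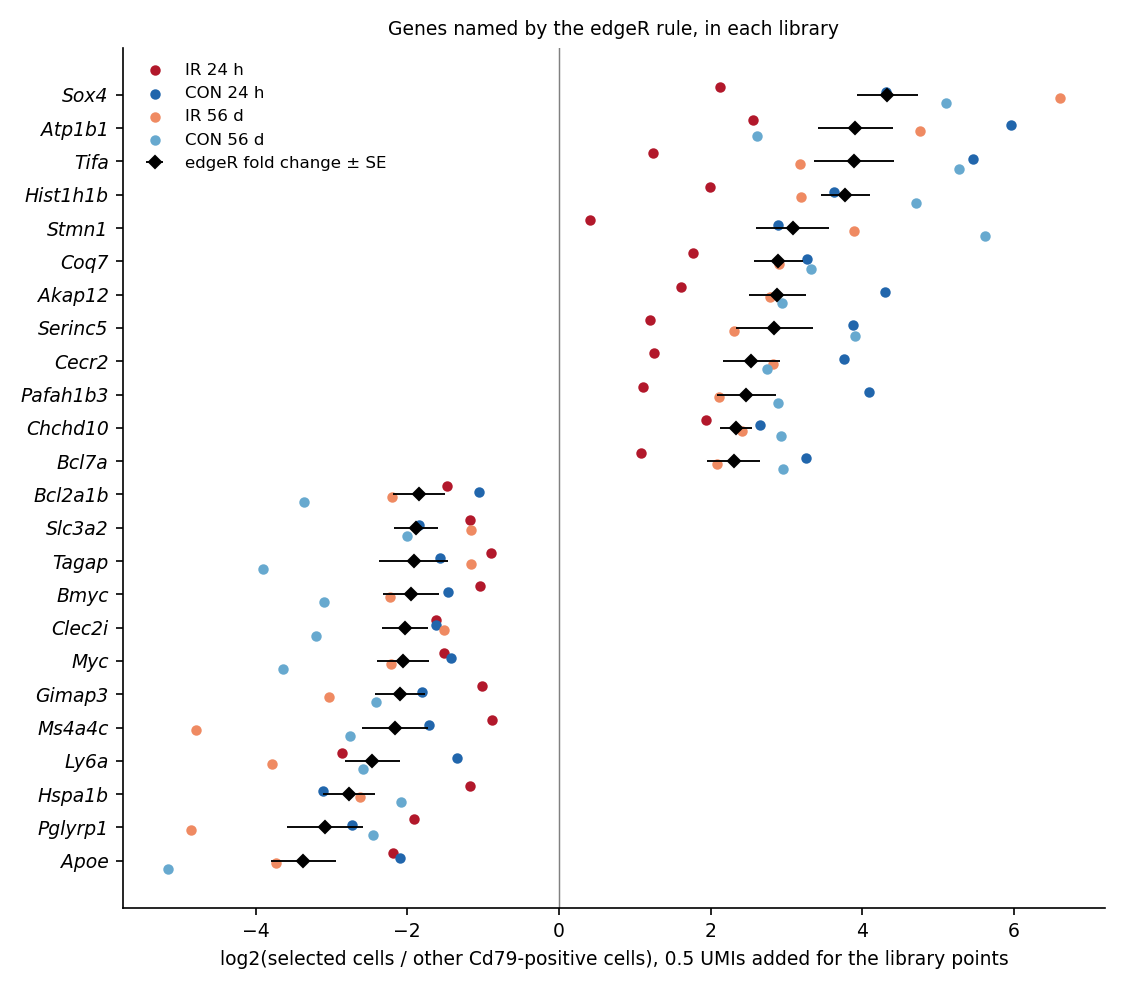
Log2 ratio of the selected over the other Cd79-positive cells (x axis) for the 24 genes named from the edgeR test (y axis): diamonds with bars are the edgeR fold change and its SE, dots the ratio in each library with 0.5 UMIs added. Every dot lies on the side of its diamond because the genes were named for 1 direction in all 4 libraries. For the 12 higher genes the dot of IR muscle at 24 hours lies nearest 0.

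In the comparison of IR with CON muscle at 24 hours, 4258 genes had at least 20 summed UMIs over the selected cells, of which 955 (22.4%) were higher in IR muscle by 1.5-fold or more and 844 (19.8%) lower. The interval of the ratio lay clear of 1 for 425 higher genes (9.98%) and 419 lower genes (9.84%). Without the barcode shared by the IR libraries 957 genes were higher and 863 lower by 1.5-fold or more. No gene can be tested with 1 library a group, and the classes of cells behind the sums differed, as given above. Genes of G2 phase and mitosis had a median log2 ratio of −3.95 and all 19 measured were at least 1.5-fold lower in IR. Because UMIs of both libraries were summed for the count limit, genes with 0 UMIs in IR muscle entered through CON muscle alone. The limit thus set part of the count of lower genes. Top2a, a topoisomerase of dividing cells, had 0 UMIs in IR and 144 in CON muscle, at least 14.53-fold lower in IR. Hist1h2ap with 0 and 135 UMIs, Ube2c with 0 and 130 and Birc5 with 0 and 96 UMIs in IR and CON muscle were at least 13.63-, 13.12- and 9.69-fold lower. These limits, like that of Top2a, are against the floor of 3 UMIs. The exact intervals of Top2a, Hist1h2ap, Ube2c and Birc5 reach down to 11.67-, 10.93-, 10.52- and 7.73-fold. Their UMIs in CON muscle came from 10, 19, 7 and 10 of 126 cells. Limits and intervals count UMIs as independent and do not cover the spread between cells. Mki67 had 1 UMI in IR and 136 UMIs in CON muscle, a ratio of 0.02428 (interval 0.0006104 to 0.1376). With cycling cells left out the list median was −0.09 over the 4 genes still measured; within the Vpreb3 class alone it was −2.81 over 8 measured genes, and thinned to 1000 UMIs it was −0.76 over the 3 genes still measured.

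The early progenitor genes were lower in IR muscle at 24 hours, 6 of 6 measured, with a median log2 ratio of −2.46. Here too a gene could meet the count limit through CON muscle alone. Sox4 had a ratio of 0.0951 (interval 0.04707 to 0.1721) and Smarca4, with 6 UMIs in IR and 173 in CON muscle, of 0.1145 (interval 0.04146 to 0.2544). Myb, a transcription factor of progenitors, had 8 UMIs in IR and 104 in CON muscle, and Cd93, a surface protein of immature B cells, 7 in IR and 81 in CON muscle. Within the Vpreb3 class Sox4 had 11 UMIs in IR and 61 in CON muscle, a ratio of 0.3535 (interval 0.1677 to 0.6779), and Atp1b1 had 12 in IR and 85 in CON muscle, a ratio of 0.2768 (interval 0.1376 to 0.5091). Both genes were thus lower in IR muscle in the same class too, with intervals below 1. Of 6 measured genes of V(D)J recombination and end joining outside the rule, 4 were at least 1.5-fold lower, among them Xrcc6, which encodes Ku70, with 4 UMIs in IR and 87 in CON muscle.

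The genes of mature B cells were higher in IR muscle at 24 hours over all selected cells, 12 of 21 by at least 1.5-fold and 0 lower, with a median log2 ratio of 0.71. Ms4a1 had 365 UMIs in IR and 493 in CON muscle, a ratio of 2.445 (interval 2.13 to 2.805), Cd55, a complement regulator, 2.949 (interval 2.229 to 3.896) and Ccr7, a homing receptor, 2.067 (interval 1.563 to 2.722). Class II genes had a median of 0.69, with 8 of 10 at least 1.5-fold higher. Within the Vpreb3 class those medians were 0.28 and 0.07, and 0 of 10 class II genes passed 1.5-fold. In that class Ms4a1 still had a ratio of 1.547 (interval 1.345 to 1.779) and Cd55 of 2.044 (interval 1.524 to 2.742), while Cd83 had 0.6444 (interval 0.4532 to 0.9017) and Ighd 0.7017 (interval 0.5239 to 0.9302). Genes of the mature list therefore did not all lie on 1 side of 1 when the class was held fixed.

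B lineage transcription factors had a median log2 ratio of 0.22 at 24 hours, with 2 of 14 at least 1.5-fold higher in IR muscle and 4 lower. Ebf1 had 367 UMIs in IR and 1832 in CON muscle, a ratio of 0.6616 (interval 0.5898 to 0.7405), and Pax5 had 56 in IR and 161 in CON muscle, a ratio of 1.149. Ikzf3, an Ikaros family factor of later B cells, had a ratio of 2.322 (interval 1.55 to 3.453). Among 14 genes of pre-B and B cell receptor signalling 5 were at least 1.5-fold higher in IR muscle and 1 lower. Of all 4258 measured genes 22.4% were higher and 19.8% lower by that margin. Counts this small are not read as a result about either list.

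The genes furthest higher in IR muscle at 24 hours had few UMIs. Plk2, a kinase gene known as a p53 target, had 23 UMIs in IR and 12 in CON muscle, a ratio of 6.33 (interval 3.023 to 13.96), but 14 of the 23 were in 1 cell. Gimap8 had 20 UMIs in IR and 12 in CON muscle, a ratio of 5.504 (interval 2.563 to 12.35), and Nedd4, a ubiquitin ligase, 19 in IR and 12 in CON muscle, a ratio of 5.229 (interval 2.41 to 11.81). Ripor2 with 71 UMIs in IR and 60 in CON muscle had a ratio of 3.908 (interval 2.732 to 5.606), and Fchsd2, an endocytosis protein, with 68 in IR and 66 in CON muscle, of 3.403 (interval 2.389 to 4.848). Among 8 measured genes of the type I interferon response 3 were at least 1.5-fold higher and 0 lower, with a median log2 ratio of 0.52. Among them were Xaf1 with 13 UMIs in IR and 11 in CON muscle, a ratio of 3.903, and Irf9 with 15 in IR and 16 in CON muscle, a ratio of 3.096. For Xaf1, 1 cell of each library held 5 of these UMIs. Of all 4258 measured genes 22.4% were at least 1.5-fold higher, so 3 of 8 is not read as a result about this list. In the Vpreb3 class Irf9 had a ratio of 3.431 (interval 1.343 to 9.439) and Ifi27l2a of 2.014 (interval 1.593 to 2.547).

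The p53 targets that mark irradiated cells were read at low counts in the selected cells. Cdkn1a, a cell cycle inhibitor, had 2 UMIs in IR and 6 in CON muscle at 24 hours, and 1 in IR and 5 in CON muscle at 56 days. Mdm2, the ubiquitin ligase of p53, had 5 in IR and 34 in CON muscle at 24 hours, and 12 in IR and 9 in CON muscle at 56 days. Ccng1 had 4 in IR and 8 in CON muscle at 24 hours, and 1 in IR and 3 in CON muscle at 56 days, while Phlda3 had 0 in both at 24 hours and 1 in both at 56 days. None of these showed a higher level in IR muscle with an interval clear of 1; the interval of the Cdkn1a ratio at 24 hours ran from 0.1087 to 6.156. In the endothelial class of the same libraries Cdkn1a had 2325 CPM in IR and 303 CPM in CON muscle at 24 hours, and 1357 CPM in IR and 150 CPM in CON muscle at 56 days. Some cells of the endothelial class at 56 days also held neutrophil genes, at up to 32.1% of a cell's UMIs in IR and 47.05% in CON muscle. Mdm2 had 243.4 CPM in IR and 54.44 CPM in CON endothelial cells at 24 hours. Over the 8 p53 targets measured in the selected cells at 24 hours the median log2 ratio was −0.21, with 1 at least 1.5-fold higher, Plk2, and 2 lower.

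**Figure D5:**
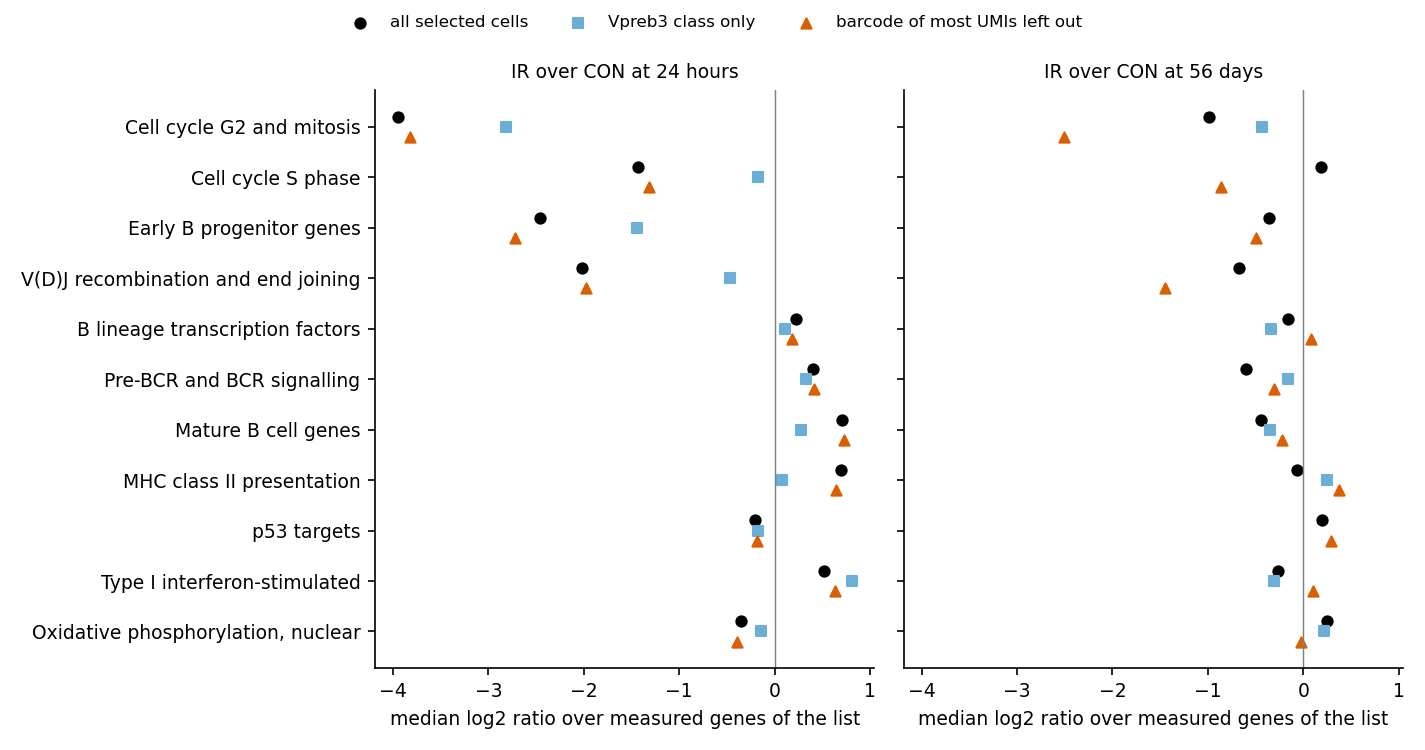
Median log2 ratio of IR over CON muscle (x axis) over the measured genes of each list (y axis) at 24 hours (left) and 56 days (right), for all selected cells, for the Vpreb3 class and with the barcode of most UMIs in each library left out; lists with too few measured genes have no point. Genes of G2 phase and mitosis lie at −3.95 at 24 hours and −0.98 at 56 days over all selected cells.

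At 56 days 2781 genes were measured, of which 385 (13.8%) were higher in IR muscle by 1.5-fold or more and 638 (22.9%) lower. The interval lay clear of 1 for 240 higher genes (8.63%) and 331 lower genes (11.9%). Without the barcode shared by the IR libraries 316 genes were higher and 577 lower by 1.5-fold or more. Linker and core histone genes were furthest lower. Hist1h1b had 30 UMIs in IR and 501 in CON muscle, a ratio of 0.0641 (interval 0.04279 to 0.09267), and 211 of the 501 were in 1 cell. Hist1h1e had 58 in IR and 474 in CON muscle, a ratio of 0.131 (interval 0.09795 to 0.1723), and 116 of the 474 were in 1 cell. The log2 ratio of Hist1h1e was −2.92 over all selected cells, −2.39 without the shared barcode, −1.24 thinned to 1000 UMIs, −1.0 without cycling cells and −0.32 in the Vpreb3 class. That of Hist1h1b was −3.57 without the shared barcode, −2.10 thinned and 0.73 in the Vpreb3 class, on the other side of 0. Hist1h1a had 9 UMIs in IR and 124 in CON muscle, Hist2h2ac 2 in IR and 47 in CON muscle and Hist1h3c 0 in IR and 67 in CON muscle. Genes of G2 phase and mitosis had a median log2 ratio of −0.98, with 12 of 20 at least 1.5-fold lower and 0 higher; without the barcode of most UMIs in each library the median was −2.50, and without the shared barcode alone it was −2.78, with 19 of 19 lower. That barcode alone held 43 of the 56 Top2a UMIs and 74 of the 83 Ube2c UMIs of IR muscle.

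Several genes furthest higher in IR muscle at 56 days had many of their UMIs in 1 cell. Of the 24 Cdca7 UMIs in IR muscle, against 3 in CON muscle, 21 came from the cell of 55119 UMIs, as did 27 of 29 UMIs of the cell cycle kinase gene Cdk6, against 5 in CON muscle. That cell also held 49 of 78 UMIs of Gapdh, a glycolytic enzyme, against 23 in CON muscle, and 10 of 21 of Rpp25l, against 3 in CON muscle. Without that cell the ratios were 1.598 (interval 0.214 to 11.93) for Cdca7 and 0.6392 (interval 0.06087 to 3.904) for Cdk6. For Gapdh the ratio was then 2.015 (interval 1.126 to 3.646) and for Rpp25l 5.859 (interval 1.548 to 32.71), so these genes stayed higher in IR muscle. Tyrobp, a signalling adaptor of myeloid and natural killer cells, had 21 UMIs in IR and 2 in CON muscle, and 14 of the 21 were in a cell that held 52 of the 53 UMIs of the monocyte and macrophage list in IR muscle. That cell had 6826 UMIs, of which 26 were of Cd79a and Cd79b; no doublet caller was run. Sox4 had 108 UMIs in IR and 94 in CON muscle, a ratio of 1.23 (interval 0.9242 to 1.639), and Atp1b1 90 in IR and 70 in CON muscle, a ratio of 1.376 (interval 0.9959 to 1.909). Without the cell of 55119 UMIs Sox4 had 813.5 CPM in IR and 525.9 CPM in CON muscle, a ratio of 1.547 (interval 1.147 to 2.086), and Atp1b1 795.6 CPM in IR and 391.6 CPM in CON muscle, a ratio of 2.032 (interval 1.469 to 2.82). Both given markers outside the rule were thus higher in IR muscle beyond counting error without that cell, and not with it. Genes of mature B cells had a median log2 ratio of −0.44, with 8 of 18 at least 1.5-fold lower and 1 higher; Ms4a1 had a ratio of 0.5896 (interval 0.459 to 0.7539). Without that cell the median was −0.10, with 1 of 17 lower and 3 higher, and Ms4a1 had a ratio of 0.8716 (interval 0.6779 to 1.115). For 13 genes of pre-B and B cell receptor signalling, 8 were at least 1.5-fold lower and 0 higher, among them the kinase gene Syk (0.338, interval 0.2042 to 0.541) and the linker gene Blnk (0.3936, interval 0.2384 to 0.6307). Their median was −0.60, and without that cell it was −0.26 with 2 of 12 lower, while Syk had a ratio of 0.5046 (interval 0.3049 to 0.8076) and Blnk of 0.517 (interval 0.3043 to 0.8468). Over all measured genes 13.8% were higher and 22.9% lower by 1.5-fold or more with that cell. Without it 316 were higher and 577 lower of 2415. The counts of both lists without that cell are therefore not read as results about the lists.

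The CON libraries differed from each other as well. In the selected cells of CON muscle at 56 days against CON muscle at 24 hours 4502 genes were measured, with 1054 (23.4%) higher at 56 days by 1.5-fold or more and 514 (11.4%) lower. The interval lay clear of 1 for 512 higher genes (11.4%) and 254 lower genes (5.64%). Time after irradiation, age of the mice and library cannot be told apart here. Dntt had 32 UMIs in 3 cells at 56 days, 21 of them in 1 cell, and 0 at 24 hours, which against the floor of 3 UMIs is at least 29.45-fold higher. Hist1h1a, Hist1h1b, Hist1h1e and Hist1h3c were higher at 56 days, with ratios of 10.7, 7.858, 6.745 and 9.248. The log2 ratio was 2.97 for Hist1h1b and 2.75 for Hist1h1e, against 0.82 and 1.59 without cycling cells and 1.70 and 1.01 in the Vpreb3 class. Genes of G2 phase and mitosis had a median log2 ratio of 1.34, and 19 of 22 were at least 1.5-fold higher at 56 days; with cycling cells left out the median over the 3 genes still measured was −0.45. Cd83, a surface protein of activated and mature B cells, had 9 UMIs at 56 days and 143 at 24 hours, a ratio of 0.1737 (interval 0.07785 to 0.3392). Class II genes had a median of −0.68, with 6 of 10 at least 1.5-fold lower and 0 higher. Bcl2a1b had 2 UMIs at 56 days and 51 at 24 hours, Spns3, a lipid transporter family gene, 3 and 57, Arf3, a small GTPase, 0 and 26, and Myl1, a muscle myosin light chain, 3 and 53, of which 29 were in 1 cell. Genes of the myofibre list, which the selected cells should lack, held 23 UMIs at 56 days and 436 at 24 hours in the selected cells of CON muscle, and their part in these differences was not tested.

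Transcripts of other cell types were present in the selected cells, in numbers that differed between lists and libraries. The neutrophil list had 0 UMIs in IR muscle and 23 in CON muscle at both times. The T cell list had 2 UMIs in IR and 6 in CON muscle at 24 hours, and 9 in IR and 5 in CON muscle at 56 days. Cd3g was at 0, and Cd3e was at 0 because the rule required it. The endothelial list had 34 in IR and 66 in CON muscle at 24 hours, and 25 in IR and 19 in CON muscle at 56 days. The erythroid list had 18 in IR and 153 in CON muscle at 24 hours, and 18 in IR and 28 in CON muscle at 56 days, with Rhag and Alas2 at 0 in every library. The myofibre list had 92 in IR and 436 in CON muscle at 24 hours, and 47 in IR and 23 in CON muscle at 56 days. The monocyte and macrophage list had 3 UMIs in IR and 1 in CON muscle at 24 hours. At 56 days it had 53 in IR muscle, 52 of them in 1 cell, and 3 in CON muscle. Mpo and Siglech, which define granulocyte-monocyte progenitors and plasmacytoid dendritic cells, were at 0 in all 4 libraries. Other genes of their lists were not all absent: 1 of 6 and 3 of 8 had enough UMIs in the selected or other Cd79-positive cells for the edgeR test.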

How the data were processed

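Single-cell RNA sequencing of hindlimb muscle was analysed in 4 libraries, 1 per group. The authors deposited raw UMI counts per gene and barcode, made with Cell Ranger 5.0.0 and mm10 per the submitters' processing notes. Cells were kept and selected by the limits given with the results, and no doublet caller was run. Members and gene lists were chosen with earlier results of these data known.

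UMIs were summed over the selected cells of each library. Ratios of CPM between libraries carry exact conditional binomial 95% intervals. Genes with at least 20 UMIs summed over both libraries compared count as measured, so a gene could enter through either library alone. For log2 ratios 0.5 was added, and the floor is 3 counts. Selected and other Cd79-positive cells were compared with edgeR 4.0.16 (TMM, filterByExpr, library as block, rule genes left out), checked on simulated data, with DESeq2 1.42.0 as an alternative in R 4.3.3. The block pairs classes taken from the same library. Python 3.11.15, numpy 2.4.6, scipy 1.17.1 and pandas 2.3.3 were used.

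Named from edgeR were the 12 genes of largest log2 fold change in each direction with an adjusted p under 0.05, the same direction in all 4 libraries and at least 50 UMIs. Between libraries the 5 genes in each direction whose interval bound lay furthest from 1 were named, and Cdkn1a, Mdm2, Ccng1 and Phlda3 always. Both left out rule genes, mitochondrial, ribosomal protein, haemoglobin, sex-linked, predicted and immunoglobulin segment genes and markers of other cell types. Lists are described by their members with most UMIs. Alternatives changed the marker and mitochondrial limits, depth (thinning to 1000 UMIs), count filter, scaling, block and test, or left out a library; those leaving out cycling cells, single barcodes, plasma-like cells or classes were chosen after seeing the data. Gene positions are from GENCODE M21 (GRCm38), in which 423 of 423 genes matched.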

Additional observations from a re-analysis of the deposited data

Results flagged for a closer look

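Among 172 genes described between libraries, 12 had ratios of IR over CON muscle on opposite sides of 1 at 24 hours and at 56 days, each with an interval clear of 1. The difference between the times was not tested, since each condition is 1 library. Genes that were higher in IR muscle at 24 hours and lower in IR muscle at 56 days included Syk, with log2 ratios of 0.53 at 24 hours and −1.54 at 56 days, Ms4a1 with 1.29 and −0.76, and Bank1 with 1.26 and −1.0. Others were the survival gene Mcl1 with 0.98 and −1.22, Cd55 with 1.56 and −1.75, Ralgps2 with 0.71 and −1.07, and the integrin gene Itga4 with 1.17 and −1.14. Iglc2 had 0.62 and −0.35, and Ripor2 had 1.96 and −1.09. Lower in IR muscle at 24 hours and higher at 56 days were the respiratory chain genes Uqcrq, with −0.63 and 0.86, and Atp5b, with −0.53 and 0.60, and Gapdh with −0.79 and 1.84. Without the barcode shared between the IR libraries, which held 33.01% of the UMIs of the selected cells of IR muscle at 56 days, 5 of the 12 genes kept opposite ratios with intervals clear of 1, namely Syk, Mcl1, Cd55, Ralgps2 and Gapdh. Their log2 ratios at 56 days were then −0.97, −0.84, −1.17, −0.49 and 1.00. For the other 7 the interval at 56 days included 1, with log2 ratios of −0.54 for Bank1, −0.20 for Ms4a1, −0.81 for Itga4, −0.51 for Ripor2, 0.17 for Uqcrq, 0.52 for Atp5b and 0.23 for Iglc2, which had −0.35 with the barcode.

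In cells outside the selection, Vpreb1 was higher in the endothelial class of IR than of CON muscle. It had 86 UMIs in IR and 7 in CON muscle at 24 hours, a ratio of 3.919 (interval 1.823 to 10.04), and 21 in IR and 5 in CON muscle at 56 days, a ratio of 5.595 (interval 2.053 to 18.99). The endothelial class held 0 UMIs of Igll1.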

How the results depend on the processing

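Cell numbers limit every comparison between libraries, and the shares depend most on Vpreb3. Without Vpreb3 in the rule the selected cells were 0.03939% of kept cells in IR and 2.919% in CON muscle at 24 hours, and 1.342% in IR and 0.9412% in CON muscle at 56 days; of Cd79-positive cells they were 0.9804% in IR and 16.12% in CON muscle at 24 hours, and 21.31% in IR and 21.33% in CON muscle at 56 days. Thinned to 1000 UMIs the shares of kept cells were 0.8314% in IR and 6.748% in CON muscle at 24 hours, and 2.969% in IR and 1.382% in CON muscle at 56 days, and of Cd79-positive cells 18.37% in IR and 33.92% in CON muscle at 24 hours, and 43.86% in IR and 31.82% in CON muscle at 56 days. With 3 precursor UMIs required, IR muscle at 24 hours had 1.182% of kept and 29.41% of Cd79-positive cells, and CON muscle 45.45% of Cd79-positive cells; at 56 days the shares of kept cells were 3.406% in IR and 1.824% in CON muscle. With 0 endothelial and T cell UMIs the shares were 0.9846% in IR and 6.737% in CON muscle at 24 hours, and 2.683% in IR and 1.412% in CON muscle at 56 days.

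Counts of genes past 1.5-fold are given as higher, then lower. For IR over CON at 24 hours they were 257 and 244 thinned, 332 and 324 with 50 summed UMIs and 622 and 352 in the Vpreb3 class, and 541 were lower without cycling cells. At 56 days they were 81 and 94 thinned, 125 and 185 with 50 UMIs, 221 and 355 with 0 endothelial UMIs, 168 and 207 in the Vpreb3 class and 202 and 327 without cycling cells. For CON at 56 days over CON at 24 hours they were 271 and 190 thinned, 331 and 162 with 50 UMIs and 490 and 334 without Vpreb3, and 642 were higher in the Vpreb3 class. Some values changed sign, and the cause was not tested. The S-phase median at 24 hours was 0.33 without cycling cells, and Hist1h1b at 56 days was 0.73 in the Vpreb3 class. Between the CON libraries the class II median was 0.0003 thinned and 1.07 without Vpreb3, the S-phase median −2.31 in the Vpreb3 class and −0.96 without cycling cells, and the G2 and mitosis median −0.45 without cycling cells.

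The edgeR counts ranged from 13 to 152 higher and from 19 to 165 lower when 1 library was left out. With no replicate block, that is without pairing the classes by library, 64 genes were higher and 56 lower. DESeq2 called 61 lower, no filter on low counts gave 294 higher and 208 lower, thinning 46 lower, 3 precursor UMIs 164 lower, and the rule without Vpreb3 209 higher and 282 lower, with IR muscle at 24 hours not in the fit. Without the barcode of most UMIs in each class and library 102 were higher and 166 lower. Of 321 values of the named genes under these settings, 7 no longer passed and 0 changed sign. Genes not tested under a setting were not counted. Thinning kept 3 of the 24 named genes, and without the CON library of 24 hours 17 passed and 4 did not. The genes were named for 1 direction in all 4 libraries, so their signs without a library were largely fixed in advance.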
